A study of Mus musculus with 2 samples.

Results

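Pulmonary surfactant is made by alveolar type 2 cells and stored in lamellar bodies, and 10 genes of its protein and lipid machinery were followed here: the surfactant proteins Sftpa1, Sftpb, Sftpc and Sftpd, the lamellar body membrane genes Abca3 and Lamp3, the phosphate transporter Slc34a2, the proteases Napsa and Ctsh, and the acyltransferase Lpcat1. They were chosen by name, for their part in fetal surfactant production, and all 10 were found among the 43346 gene rows of the data. Expression was measured by total RNA-seq in whole lung of mouse embryos of strain B6NCrl on embryonic day 16.5 (E16.5), with no treatment, transgene or mutation given in the labels. The 2 libraries are biological replicates of 1 group, and each was made of lungs pooled over male and female embryos, with 41 embryos stated for replicate 2 and no number for replicate 1. Pooling averages over embryos, so the spread between these libraries says nothing of single animals, and the labels give both pools the same donor entry. With 1 group there is no control or other age to compare with, so levels are given in each replicate and as mean ± SD (n = 2), and no p-value is given.

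Surfactant is a film of phospholipid and protein that lowers surface tension when the lung first fills with air, and in the mouse its machinery is switched on late in gestation as distal epithelial cells mature. Surfactant proteins B and C are hydrophobic and travel with the lipid, whereas surfactant proteins A and D are secreted collectins that bind sugars on microbes. The lipid is pumped into lamellar bodies, organelles related to lysosomes, where the precursor of surfactant protein B is also cut to its mature form by proteases. Type 2 cells are a fraction of the cells in whole lung, and fewer cells of a type cannot be told apart from less RNA per cell in such tissue.

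The depth, in expected counts (estimated numbers of reads), was 38852470 for replicate 1 and 27145411 for replicate 2. Levels are in TPM, the usual relative unit scaled by transcript length and library total, so that genes can be compared. Lung markers were detected, with the lung mesenchyme factor Tcf21 at 326 ± 6.97 TPM. Type 2 genes apart from the 10 above were at 1 TPM or more in both replicates in 10 of 12 cases. So were 61.5% of all coding genes, and this count alone says little of the tissue. Markers of other tissues were detected too, and all those that averaged 1 TPM or more were higher in replicate 2. The summed level of 6 liver markers was 426 TPM in replicate 2 and 50.2 TPM in replicate 1, that of 6 skeletal muscle markers was 441 and 155 TPM, and that of 6 thymus markers was 49.0 and 18.9 TPM. None of these markers was at 0 in both replicates.

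A pair of exon choices decides which Sftpb and Ctsh transcripts are counted, and their sequences are shown because the transcript results further on turn on them. In Sftpb the exon on the plus strand of chr6:72309756-72309825 (mm10) is an extension of 70 bases at the start of an exon, given in capitals with 30 bases of the transcript on each side. It is followed by the same stretch as it reads when the extension is left out. In Ctsh the capitals mark an exon of 106 bases at chr9:90061519-90061624, plus strand, again followed by the joined form. The sequences are those of GENCODE M21 transcripts Sftpb-202, Sftpb-204, Ctsh-201 and Ctsh-202.
Sftpb with the extension: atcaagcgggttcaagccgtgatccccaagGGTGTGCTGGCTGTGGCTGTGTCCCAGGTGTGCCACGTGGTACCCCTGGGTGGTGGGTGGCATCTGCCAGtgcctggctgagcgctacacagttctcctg
Sftpb without it: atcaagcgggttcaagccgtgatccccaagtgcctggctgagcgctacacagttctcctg
Ctsh with the exon: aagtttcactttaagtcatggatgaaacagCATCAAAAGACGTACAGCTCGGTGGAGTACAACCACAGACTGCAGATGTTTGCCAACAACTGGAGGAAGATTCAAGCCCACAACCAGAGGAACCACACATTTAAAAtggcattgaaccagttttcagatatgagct
Ctsh without it: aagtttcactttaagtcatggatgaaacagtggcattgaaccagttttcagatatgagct

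RefSeq promoters (GRCm38.p6, 250 bases before to 50 after the start of the gene) were matched for 6 of the 10 genes: Sftpa1, Sftpb, Abca3, Lamp3, Slc34a2 and Lpcat1. The Slc34a2 window (chr5:53049103-53049402) follows the RefSeq start and lies inside the gene as GENCODE M21 draws it, downstream of the start given there. The promoters differed in their number of CpG pairs. Slc34a2 had 30 CpG pairs in its 300 bases, Abca3 had 29 and Lpcat1 had 25, all above the upper quartile of 20 over 32851 promoters. Sftpb had 8, Sftpa1 had 5 and Lamp3 had 0, against a median of 7 over all promoters. The G and C content was likewise higher in the first 3 promoters, at 68.7% for Slc34a2, 69.7% for Abca3 and 64.0% for Lpcat1, against 58.3% for Sftpb, 52.0% for Sftpa1 and 43.7% for Lamp3. Abca3 and Lamp3, with 29 and 0 CpG pairs, had nearly the same TPM, and a relation between CpG content and level was not tested.

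Abca3 and Lamp3 are shown for that contrast, and Sftpb and Sftpa1 because they hold CTCAAG, the core letters of sites bound by NKX2-1, the factor that defines lung epithelium. Motifs were searched on both strands and were chosen with these sequences in view. CTCAAG was found in 15.9% of all promoters at least once and in 1.40% at least 2 times; Sftpb held 2 and Sftpa1 held 1, and the other 4 matched promoters held none in this window. TATAAA, the TATA box, was in the Sftpa1 promoter and in 13.6% of all promoters. TGTTTAC, core letters of forkhead factor sites, was in the Lamp3 promoter and in 3.65% of all promoters. The matches do not overlap one another. A match is a run of letters and does not show that a factor binds. Capitals mark CTCAAG in Sftpb (chr6:72304360-72304659, plus strand) and Sftpa1 (chr14:41131538-41131837, plus strand), CpG pairs in Abca3 (chr17:24351773-24352072, plus strand) and TGTTTAC in Lamp3 (chr16:19706316-19706615, minus strand).
Sftpb promoter: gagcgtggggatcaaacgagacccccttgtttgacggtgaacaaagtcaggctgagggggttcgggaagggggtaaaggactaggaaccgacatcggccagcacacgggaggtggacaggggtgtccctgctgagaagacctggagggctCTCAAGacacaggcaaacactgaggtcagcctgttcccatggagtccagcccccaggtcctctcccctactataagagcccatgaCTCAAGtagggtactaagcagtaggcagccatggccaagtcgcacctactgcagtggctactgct
Sftpa1 promoter: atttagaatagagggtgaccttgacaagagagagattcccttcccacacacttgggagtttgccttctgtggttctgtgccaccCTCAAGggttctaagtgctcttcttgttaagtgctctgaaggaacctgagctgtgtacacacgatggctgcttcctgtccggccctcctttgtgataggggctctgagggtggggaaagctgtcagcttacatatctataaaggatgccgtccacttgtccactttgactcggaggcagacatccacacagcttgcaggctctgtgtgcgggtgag
Abca3 promoter: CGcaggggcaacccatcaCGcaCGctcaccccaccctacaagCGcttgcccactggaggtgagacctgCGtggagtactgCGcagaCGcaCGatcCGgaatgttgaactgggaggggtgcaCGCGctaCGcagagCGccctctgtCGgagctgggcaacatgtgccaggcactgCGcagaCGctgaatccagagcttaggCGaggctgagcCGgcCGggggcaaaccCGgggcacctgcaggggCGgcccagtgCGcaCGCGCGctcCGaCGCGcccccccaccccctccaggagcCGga
Lamp3 promoter: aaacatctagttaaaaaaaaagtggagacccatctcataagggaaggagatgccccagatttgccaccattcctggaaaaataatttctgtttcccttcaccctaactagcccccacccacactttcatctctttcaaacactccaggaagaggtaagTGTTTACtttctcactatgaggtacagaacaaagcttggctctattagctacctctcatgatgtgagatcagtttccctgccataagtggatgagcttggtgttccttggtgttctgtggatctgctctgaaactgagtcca

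Sftpc, which encodes surfactant protein C, a hydrophobic peptide of the distal lung epithelium, was far above the other surfactant genes. Its level was 10883 TPM in replicate 1 and 14172 TPM in replicate 2 (12528 ± 2326 TPM), estimated from 200525 and 185138 reads. It ranked 4th of all genes in replicate 1 and 2nd in replicate 2, and 2nd among genes coding for protein in both. Sftpc lies on chromosome 14 (70520949 to 70524081, minus strand, mm10) and alone made up 88.6% of the summed TPM of the 10 genes in each replicate.

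Sftpb on chromosome 6 (72304610 to 72314371, plus strand) encodes surfactant protein B, the saposin-like protein without which the newborn lung fails. It had 229.7 TPM in replicate 1 and 269.6 TPM in replicate 2 (249.7 ± 28.2 TPM). The log2 ratio of Sftpc to Sftpb was 5.64 ± 0.11, a ratio of 47.4 in replicate 1 and 52.6 in replicate 2. These partners in the lipid film thus differed in RNA level by far more than the replicates did.

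The collectins were very unequal. Sftpa1 on chromosome 14 (41131782 to 41136452, plus strand), which encodes surfactant protein A, had 188 TPM in replicate 1 and 258 TPM in replicate 2 (223 ± 49.3 TPM). Sftpd, which encodes surfactant protein D and lies on the same chromosome (41172214 to 41185149, minus strand), had 2.68 and 5.41 TPM in replicates 1 and 2 (4.04 ± 1.93 TPM). Its values rest on 86 and 123 expected counts, and the deposited credibility bounds were 2.10 and 3.22 TPM for replicate 1, against 4.38 and 6.24 TPM for replicate 2. The log2 ratio of Sftpa1 to Sftpd was 5.85 ± 0.40, or a ratio of 70.2 in replicate 1 and 47.7 in replicate 2. Both genes are neighbours, with 35761 bases between their ends, and in that interval the collectin gene Mbl1 was at 0.330 TPM in both replicates. The pseudogene Gm7920, which also lies there, had no matched row. Sftpa1 and Sftpb could not be ordered: Sftpb was higher in both libraries, yet the log2 ratio of 0.18 ± 0.16 did not exceed 2 SD and the ranges of the genes overlapped.

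The lamellar body membrane genes and Slc34a2 were expressed at lower levels than Sftpb and Sftpa1. Abca3, the ATP-driven pump that loads phospholipid into the organelle, had 33.2 TPM in replicate 1 and 38.6 TPM in replicate 2 (35.9 ± 3.86 TPM, chromosome 17, 24351950 to 24410201, plus strand). Lamp3, a glycoprotein of the limiting membrane, had 31.4 and 42.1 TPM (36.7 ± 7.58 TPM, chromosome 16, 19653378 to 19706375, minus strand). Lamp3 was lower than Abca3 in replicate 1 and higher in replicate 2, with a log2 ratio of 0.02 ± 0.14. Slc34a2, the sodium-dependent phosphate cotransporter of the type 2 cell surface, had 46.4 TPM in replicate 1 and 73.2 TPM in replicate 2 (59.8 ± 19.0 TPM, chromosome 5, 53038081 to 53071664, plus strand). It exceeded Abca3 by 0.70 ± 0.31 on the log2 scale, with the same sign in both libraries. The ratio of Sftpc, a cargo of the lamellar body, to its lipid pump Abca3 was 328 in replicate 1 and 367 in replicate 2.

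Among the proteases, Ctsh was the higher. This gene encodes cathepsin H, a lysosomal cysteine protease that trims the precursor of surfactant protein B, and it had 694 TPM in replicate 1 and 898 TPM in replicate 2 (796 ± 145 TPM, chromosome 9, 90054152 to 90076089, plus strand). Among genes coding for protein it ranked 150th in replicate 1 and 95th in replicate 2. Napsa, which encodes the aspartic protease napsin A that also cuts this precursor, had 80.5 and 119 TPM (99.9 ± 27.4 TPM, chromosome 7, 44572380 to 44586862, plus strand). The log2 ratio of Napsa to Ctsh was -3.01 ± 0.14. Ctsh is also used by lysosomes of many cell types, so its level in whole lung is not that of type 2 cells alone.

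Lpcat1, the acyltransferase that remodels phosphatidylcholine to its disaturated form, had 99.4 TPM in replicate 1 and 116 TPM in replicate 2 (108 ± 12.0 TPM, chromosome 13, 73467197 to 73516422, plus strand). The lipid-making enzyme and the lipid pump kept the closest proportion of the 8 pairs examined: the log2 ratio of Abca3 to Lpcat1 was -1.58 in replicate 1 and -1.59 in replicate 2.

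**Figure D1:**
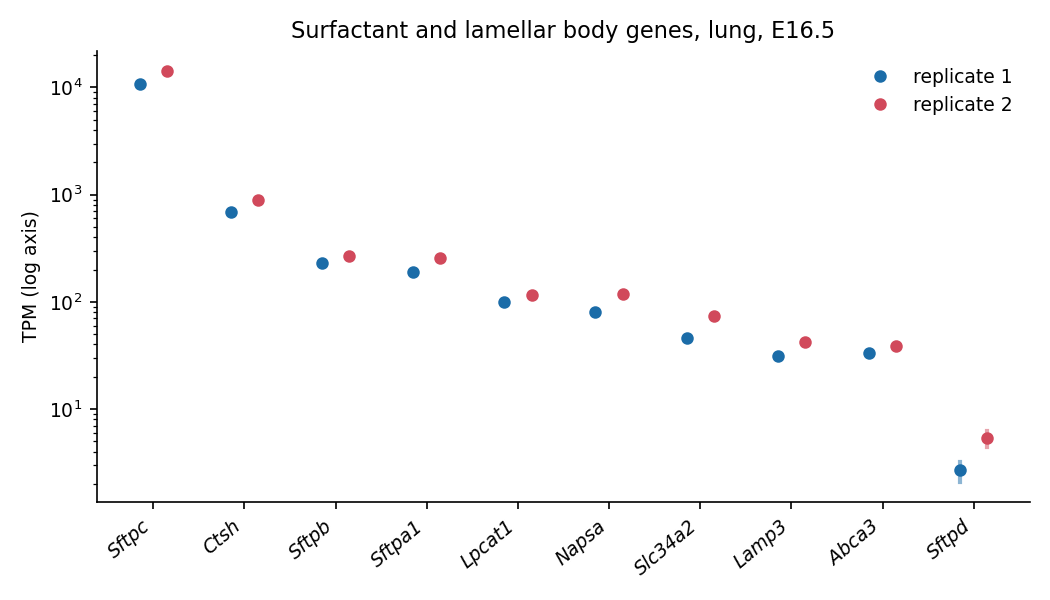
Level of each of the 10 genes in TPM on a log axis, with a point for each replicate and vertical lines for the deposited credibility bounds, which are mostly smaller than the points. Sftpc stood at 12528 ± 2326 TPM and Sftpd at 4.04 ± 1.93 TPM, and replicate 2 was the higher for each gene.

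Ordered by mean, the genes ran Sftpc, Ctsh, Sftpb, Sftpa1, Lpcat1, Napsa, Slc34a2, Lamp3, Abca3, Sftpd. Of the 9 pairs of neighbours in this order, 3 had overlapping replicate values and so could not be ordered: Sftpb with Sftpa1, Lpcat1 with Napsa, and Lamp3 with Abca3. The median over the 10 genes was 104 ± 19.7 TPM, against 19.0 ± 0.159 TPM over the 13202 genes coding for protein that reached 1 TPM in each replicate. At 100 TPM or more in both replicates there were 4 of the 10 (Sftpc, Ctsh, Sftpb and Sftpa1) and 7.06% of all coding genes. At 10 TPM or more in both there were 9, all but Sftpd, against 40.3% of coding genes. The 10 genes together held 1.23% of TPM in replicate 1 and 1.60% in replicate 2, and 0.658% and 0.868% of the expected counts. Without Sftpc their sum was 1405 TPM in replicate 1 and 1821 TPM in replicate 2.

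Most of the 10 were more abundant than the relatives listed for them. Of the 10, 7 were above the highest of their listed relatives in both replicates. Sftpc was 17.0-fold above Itm2b (732 ± 13.7 TPM), the broadly expressed gene that leads the BRICHOS domain family. Abca3 was 4.21-fold above the cholesterol transporter Abca1 (8.50 ± 0.410 TPM), and all 15 listed Abca relatives were below it. Ctsh was 3.95-fold above cathepsin Z, encoded by Ctsz at 199.8 ± 12.2 TPM, with all 10 listed relatives lower in both replicates. Slc34a2 was 2.64-fold above Slc20a2 (22.1 ± 0.651 TPM), and its closest relatives were nearly silent: Slc34a1 had 0.0100 and 0 TPM in replicates 1 and 2 and Slc34a3 was at 0 in both, where 0 counts allow up to 0.161 and 0.227 TPM. Sftpb was 2.26-fold above Psap (110.2 ± 0.410 TPM), the precursor of the lysosomal saposins. Lpcat1 was 2.09-fold above Lpcat3 (51.4 ± 0.672 TPM), and Sftpa1 was 1.99-fold above the scavenger collectin Colec12 (111 ± 6.26 TPM).

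The other 3 genes were below a relative in both replicates. Sftpd was 29.1-fold below Colec12. Lamp3 was 7.12-fold below Lamp1 (259 ± 12.9 TPM), the general lysosome membrane protein. Napsa was 2.73-fold below Ctsd (268 ± 13.7 TPM), the general lysosomal aspartic protease. Other relatives that led their lists were Itm2a at 312 ± 19.5 TPM and Itm2c at 179 ± 2.84 TPM, Abca8a at 7.09 ± 0.403 and Abca9 at 5.20 ± 0.184 TPM, and Lamp2 at 141 ± 1.41 and Cd68 at 16.4 ± 0.163 TPM. Among proteases, Bace1 had 21.8 ± 0.0212, Pgc 20.6 ± 2.49, Ctsc 164 ± 16.7 and Ctsl 139 ± 15.5 TPM. The transporter Slc20a1 had 18.6 ± 2.47 TPM, and the acyltransferases Mboat7 and Mboat2 had 43.0 ± 2.79 and 29.1 ± 1.90 TPM. Lowest on their lists were Mbl2 and Abca16, at 0 in both replicates, Lpcat2b at 0.0300 and 0 TPM, and Lamp5, Ren1 and Ctsw at 0.880 ± 0.933, 0.875 ± 0.318 and 1.53 ± 0.255 TPM. A count of 0 allows up to 0.115 and 0.162 TPM for Mbl2 and up to 0.0287 and 0.0405 TPM for Abca16 in replicates 1 and 2, from 3 counts.

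**Figure D2:**
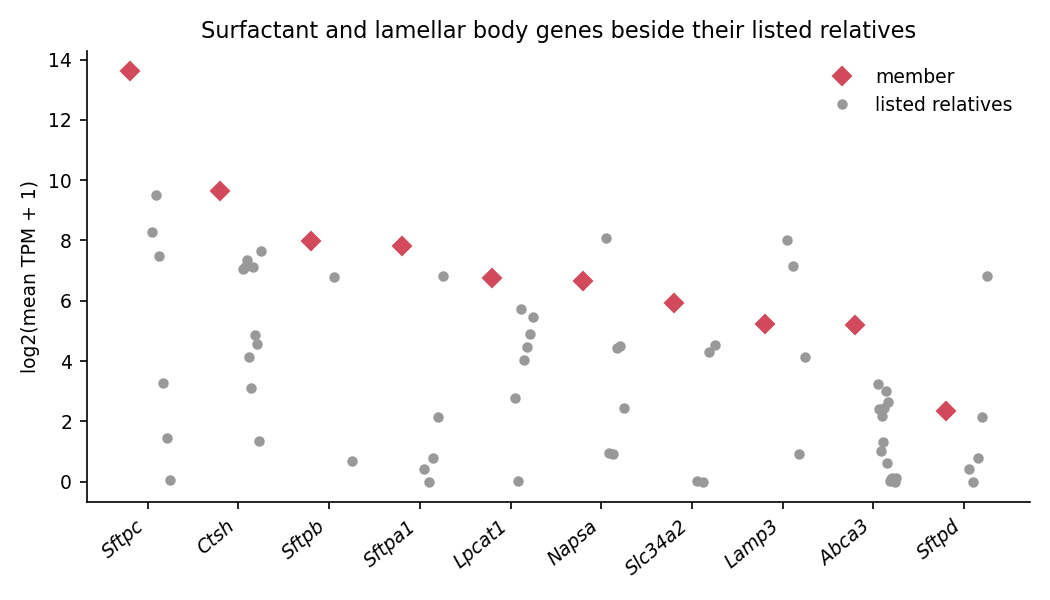
Mean TPM over both replicates, as log2(mean TPM + 1), of each surfactant or lamellar body gene (diamonds) beside its listed relatives (grey points). Sftpd, Lamp3 and Napsa each have a relative above them, and the other 7 do not.

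All 10 genes were higher in replicate 2 than in replicate 1. Each difference is that of log2(TPM + 1), replicate 2 minus replicate 1, and a gene was counted as past the fold at 0.32 or more on that scale, a ratio of 5 to 4 in TPM + 1. Of 15493 genes that averaged 1 TPM or more, 50.2% were higher in replicate 2 by any amount, 10.3% were higher past the fold and 3.89% were lower past it. Of the 10, none was lower and 7 were higher past the fold (Sftpd, Slc34a2, Napsa, Sftpa1, Lamp3, Sftpc and Ctsh), and 2 of these (Sftpd and Slc34a2) by 1.5-fold or more, against 4.66% of all genes. Their differences ran from 0.21 for Abca3 to 0.80 for Sftpd, with a median of 0.40, whereas the median over all genes was 0.00. Slc34a2 differed by 0.65, Napsa by 0.56, Sftpa1 by 0.45, Lamp3 by 0.41, Sftpc by 0.38 and Ctsh by 0.37. Those under the fold were Sftpb at 0.23, Lpcat1 at 0.22 and Abca3 at 0.21. For all 10 the credibility bounds of the replicates did not overlap, with replicate 2 the higher, as for 6.71% of all genes. That share was not matched for level: 6238 of the 15493 genes averaged 1 to 10 TPM, as did only Sftpd of the 10. The credibility bounds cover only the estimation within a library, and the TPM lay outside its own bounds in 4 of 20 cases: Sftpc in both replicates, and Sftpb and Ctsh in replicate 2.

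The spread between the replicates was wider for low genes, and the share of all genes higher past the fold was larger there too. At 1 to 10 TPM, where Sftpd lies, it was 20.2%. At 10 to 100 TPM it was 3.99%, and Lamp3, Napsa and Slc34a2 were past it while Abca3 was not. At 100 to 1000 TPM it was 1.54%, with Sftpa1 and Ctsh past it and Sftpb and Lpcat1 short of it, and the SD of the differences was 0.15 there. At 1000 TPM or more, 2 of 102 genes were past it, or 1.96%, and they were Sftpc and the airway secretory gene Scgb3a2.

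**Figure D3:**
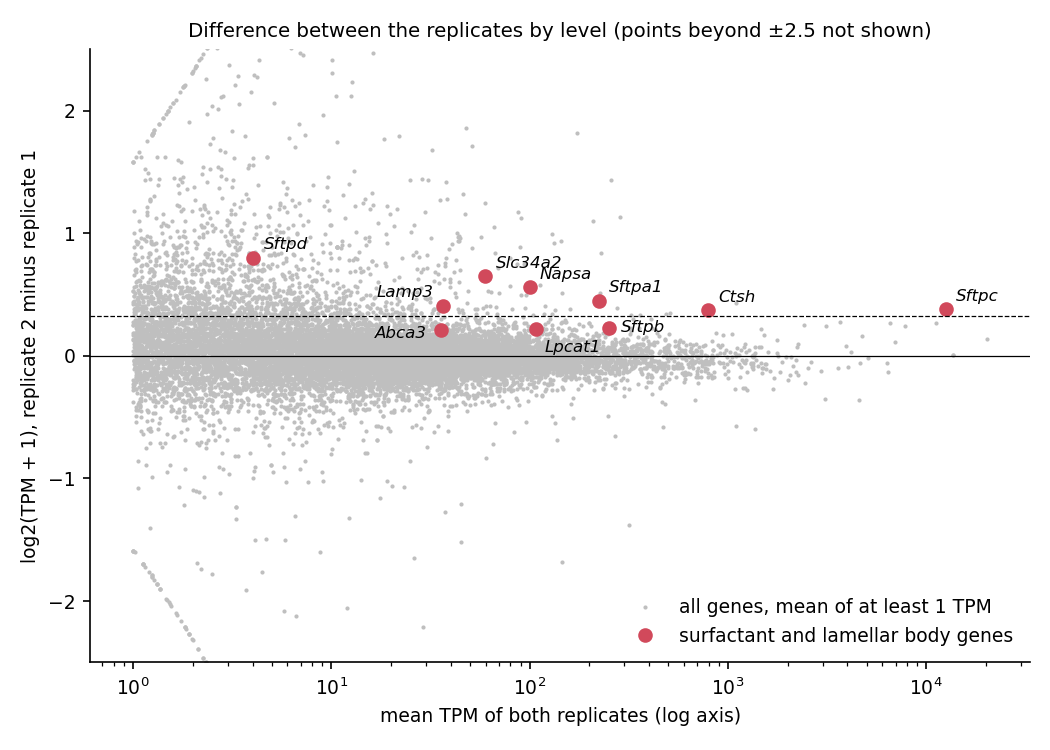
Difference between the replicates in log2(TPM + 1), replicate 2 minus replicate 1, against the mean TPM on a log axis, for 15493 genes in grey and the 10 surfactant and lamellar body genes in red. The dashed line is the fold used for counting, at 0.32, and all 10 lie above 0 and 7 above that line.

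Genes of the surfactant pathway and relatives of the 10 were counted in the same way. Over 7 lists of pathway genes and 7 lists of relatives, 6 of the 125 genes that averaged 1 TPM or more were higher past the fold in replicate 2, and 10.3% of all genes were. This count was 9 with TMM or DESeq2 scaling and 10 with spike-in scaling, where 7.60%, 7.44% and 8.20% of all genes were past the fold, so no difference from all genes is read from it. In phosphatidylcholine and phosphatidylglycerol synthesis, 1 of 15 genes was higher (Cds1, at 9.46 TPM in replicate 2 and 6.12 in replicate 1) and 1 was lower (the choline transporter Slc44a1, at 13.6 and 20.6 TPM). That list had a median of 32.4 ± 0.382 TPM and was led by Cept1 at 59.6 ± 3.29 TPM, which joins choline to lipid, and by the choline kinases Chkb at 49.9 ± 1.12 and Chka at 48.9 ± 1.82 TPM, with Pcyt1b lowest at 0.950 ± 0.240 TPM. No gene of 12 for fatty acid supply was past the fold in either direction. Fabp5, a fatty acid carrier, led it at 199 ± 26.3 TPM, followed by the desaturase Scd2 at 192 ± 4.05 and Acly at 128 ± 3.38 TPM, whereas Scd1 had 2.11 ± 0.226 TPM.

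Genes of lamellar body biogenesis and traffic had a median of 18.9 ± 1.07 TPM, and of 15 none was higher and 1, Ap3m1, was lower past the fold, at 52.5 TPM in replicate 2, against 66.0 TPM in replicate 1. This list was led by Ap3s1 at 92.2 ± 0.318 TPM, Ap3m1 at 59.2 ± 9.55 TPM, both adaptor subunits for traffic to lysosome-related organelles, and Dtnbp1 at 53.0 ± 2.68 TPM, with Lyst lowest at 2.06 ± 0.297 TPM. The organelle membrane and secretion genes, none of 12 past the fold, were more abundant, with a median of 72.4 ± 0.209 TPM. Anxa2 had 874 ± 82.7 TPM, Cd63 584 ± 15.3 TPM and Lamp1 the value above, and P2rx4, a calcium channel of lamellar body fusion, was lowest at 17.4 ± 1.92 TPM. For uptake and turnover, none of 7 genes was past the fold. Prdx6, which has phospholipase activity toward surfactant lipid, had 388 ± 10.7 TPM, the protease Bmp1 58.4 ± 0.106 TPM and Csf2ra 15.2 ± 1.07 TPM, and Csf2rb2 was lowest at 0.410 ± 0.0141 TPM.

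Regulators known to act on surfactant genes lay on both sides of 0. Of 14 that averaged 1 TPM or more, none was higher past the fold and 1, Cebpb, was lower, at 2.04 TPM in replicate 2, against 3.43 TPM in replicate 1, and the median difference was -0.11. Etv5, a target of FGF signalling in distal tips, was highest at 163 ± 8.36 TPM, followed by Nfib at 88.2 ± 1.94 TPM and the glucocorticoid receptor Nr3c1 at 70.2 ± 0.474 TPM. The receptor Erbb4 was lowest, at 0.160 TPM in replicate 2, against 0.890 TPM in replicate 1.

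Other genes of type 2 cells were mostly higher in replicate 2, in 10 of 11 cases that averaged 1 TPM or more. Of these 11, 5 were higher past the fold and 1 was lower, with a median difference of 0.32. Among all genes, 10.3% were higher past the fold and 3.89% lower. The 5 higher were the chemokine Cxcl15 (33.5 TPM in replicate 2 and 21.3 in replicate 1), the lysozyme Lyz1 (4.62 and 2.10), Hc (3.52 and 2.06), Mlc1 (1.99 and 0.940) and Chil1 (1.67 and 1.02). All but Cxcl15 averaged 1 to 10 TPM, where 20.2% of all genes were higher past the fold. S100g was lower, at 1.56 TPM in replicate 2, against 2.31 TPM in replicate 1. The most abundant of the list were not past the fold: Lyz2 at 199 ± 26.3 TPM, Muc1 at 132 ± 6.75 TPM and Ppp1r14c at 96.7 ± 3.56 TPM. Rasgrf1 was lowest at 0.960 ± 0.424 TPM.

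Some marker lists of other cell types or tissues were also mostly higher in replicate 2. They were alveolar type 1, airway secretory, macrophage, liver, skeletal muscle and thymus markers. Their part in the differences of the 10 genes was not tested. Pan-epithelial markers were close, with none of 10 past the fold, 6 of 10 higher in replicate 2, a summed level of 2036 TPM in replicate 2, against 1888 TPM in replicate 1, and a median difference of 0.07. Krt8 had 387 ± 27.8 TPM, Krt19 330.1 ± 48.5 TPM and Epcam 249.7 ± 0.474 TPM. When the libraries were scaled to equal pan-epithelial sums, the median of all genes shifted to -0.10. All 10 surfactant and lamellar body genes then still had a positive difference, from 0.11 to 0.71 with a median of 0.29, and 4 of them passed the fold, as did 7.55% of all genes. Under this scaling 1169 genes were higher and 1183 lower past the fold, whereas 1589 were higher and 603 lower in TPM as deposited. Of alveolar type 1 markers 3 of 10 were higher past the fold in TPM as deposited, against 10.3% of all genes. Summed levels of the type 1 list were 855 TPM in replicate 2, against 749.9 TPM in replicate 1. Ager had 359 ± 57.9 TPM, Igfbp2 187 ± 11.3 TPM and Emp2 117 ± 11.3 TPM. Among airway secretory markers, 4 of 5 were higher past the fold, with a median difference of 0.96 and sums of 1396 TPM in replicate 2, against 1022 TPM in replicate 1. Scgb3a2 had 1095 ± 229 TPM, Cyp2f2 67.0 ± 5.42 TPM and Scgb1a1 31.7 ± 14.9 TPM.

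Macrophages, which also use lysosome genes such as Ctsh, had none of 7 markers past the fold. All 7 were higher in replicate 2, with a median difference of 0.16. The list summed to 173 TPM in replicate 2, against 156 TPM in replicate 1, and was led by Tyrobp at 48.8 ± 5.63, C1qb at 44.8 ± 1.86 and C1qa at 29.1 ± 2.38 TPM. Endothelial markers had none of 6 past it, with sums of 665 TPM in replicate 2, against 685 TPM in replicate 1, and were led by Egfl7 at 314 ± 1.33, Pecam1 at 122 ± 6.60 and Emcn at 76.0 ± 0.672 TPM. For mesenchyme none of 6 was past it, with sums of 2776 and 2969 TPM in replicates 2 and 1, and Col3a1 at 1341 ± 7.23 and Col1a1 at 1089.8 ± 145 TPM were highest before Tcf21. For other tissues, all 6 liver markers were past the fold, with Afp at 155 TPM in replicate 2, against 18.3 TPM in replicate 1, Apoa2 at 93.0 and 11.1 TPM and Alb at 88.2 and 10.1 TPM. The 6 skeletal muscle markers were past it too, led by Acta1 at 269.6 TPM in replicate 2, against 75.8 TPM in replicate 1, Tnni2 at 49.5 and 14.8 TPM, and Ckm at 86.6 and 52.0 TPM. So were 5 of 5 thymus markers, led by Lck at 22.2 TPM in replicate 2, against 9.09 TPM in replicate 1, Cd3g at 13.8 and 5.19 TPM and Ptcra at 5.97 and 2.36 TPM.

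**Figure D4:**
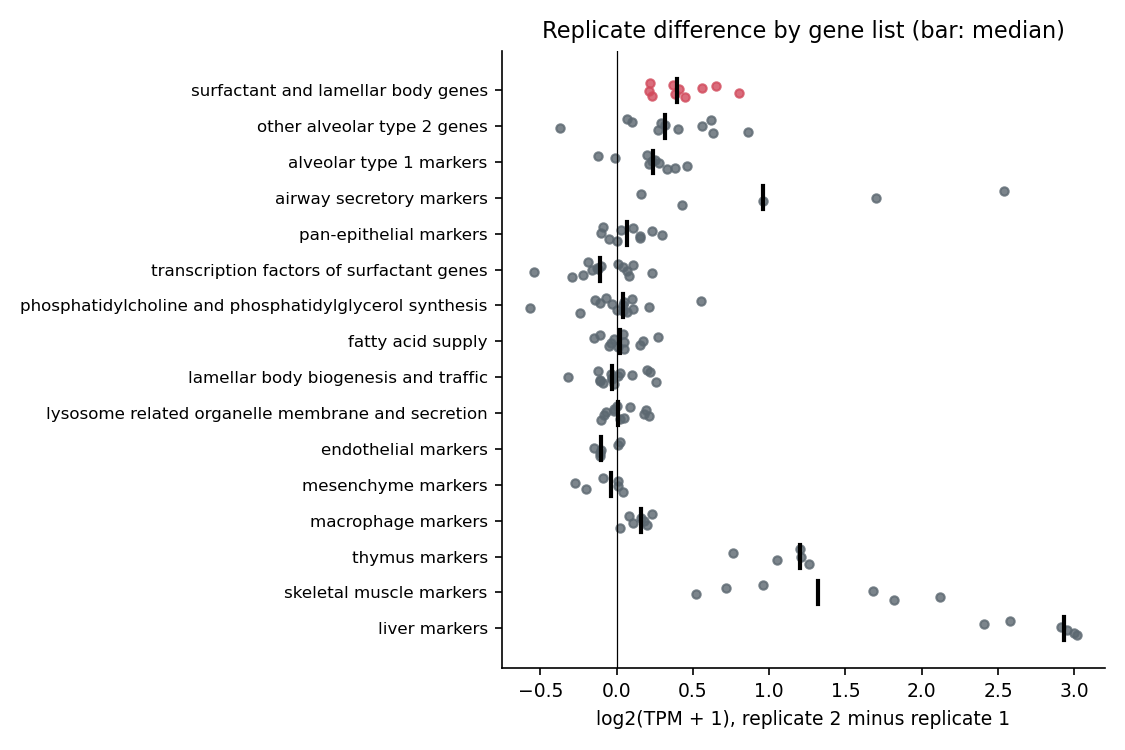
Difference between the replicates in log2(TPM + 1), replicate 2 minus replicate 1, for each gene that averaged 1 TPM or more, by list, with a bar at the median. The surfactant and lamellar body genes have a median of 0.40, the regulators -0.11, pan-epithelial markers 0.07 and liver markers 2.93.

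Each of the 10 genes had the same leading transcript in both replicates. Sftpc, Sftpd and Lamp3 have a single transcript in the deposited tables. One coding transcript held 98.3 ± 0.460% of the TPM of Napsa, and one held 97.7 ± 0.283% of that of Slc34a2. Transcript shares rest on how the authors' estimator divided reads among overlapping transcripts, and no reads over the junctions were at hand to check them.

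Sftpb was led by transcripts that are not annotated as coding for protein. Sftpb-202, annotated as a target of nonsense-mediated decay, held 53.9% of the TPM of the gene in replicate 1 and 59.6% in replicate 2 (56.8 ± 4.03%). Sftpb-205, of the same class, held 17.2 ± 3.44%, whereas the coding transcript Sftpb-204 held 21.4 ± 0.955%. Sftpb-202 and Sftpb-205 hold the whole extension of 70 bases shown above. It was in 73.6% of the TPM of Sftpb in replicate 1 and 74.4% in replicate 2, and was left out in 25.5 ± 0.171%. In the letters of the reference build its length is not a multiple of 3, so the extension as annotated in Sftpb-202 shifts the reading frame. Sftpb-202 then meets a TGA stop after 241 codons, 424 bases before its last exon junction. Whether the RNA of these lungs carries the same letters was not tested. Sftpb-204, without the extension, reads through 354 codons. That is fewer than the 376 of the coding transcript Sftpb-201, described next, which keeps all but 4 bases of the extension.

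Within Sftpb, the nonsense-mediated decay class depends on 4 bases. A further coding transcript, Sftpb-201, has the same exons as Sftpb-205 but leaves out the letters CTGG at positions 46 to 49 of the extension (chromosome 6, 72309801 to 72309804), which the annotation draws as an intron of 4 bases, and it then reads through 376 codons. Sftpb-201 was given 1.08% of the TPM of Sftpb in replicate 1 and 0% in replicate 2. The share of Sftpb RNA that carries the extension and keeps the frame therefore rests on a difference of 4 bases between otherwise equal transcripts, which the deposited estimates alone cannot settle. The shares thus do not show that most Sftpb RNA fails to code for protein.

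Ctsh was led by a transcript of the same class. Ctsh-202 held 54.2% of the TPM of Ctsh in replicate 1 and 54.5% in replicate 2 (54.4 ± 0.262%). It lacks the exon of 106 bases shown above, and its frame ends at a TGA after 41 codons, 694 bases before the last junction, whereas Ctsh-201 reads through 333 codons. Transcripts that skip the exon held 54.6 ± 0.269% of the TPM, those that keep it held 40.9 ± 0.696%, and the remaining 4.50 ± 0.428% was in transcripts that do not span it. The full-length coding transcript Ctsh-201 held 5.91% in replicate 1 and 3.61% in replicate 2, and the shorter coding models Ctsh-204 and Ctsh-208 held 22.8 ± 1.21% and 12.6 ± 2.02%. The TPM of all Ctsh transcripts annotated as coding was 284 TPM in replicate 1 and 358 TPM in replicate 2, above the whole of Sftpb. Most of this sum was in Ctsh-204 and Ctsh-208, of 631 and 872 bases, which are shorter than the 999 coding bases of Ctsh-201. Ctsh-201 itself had 41.0 TPM in replicate 1 and 32.4 TPM in replicate 2, below the whole of Sftpb in both.

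Sftpa1 has a pair of coding transcripts with the same 4 coding blocks that differ in the length after the stop, 30 bases in the shorter and 2006 bases in the longer. They also differ in exon number, with 5 exons in the shorter and 6 in the longer. By TPM, the shorter held 78.8 ± 1.10%. By expected counts the transcripts were nearly equal, with the shorter at 51.5% in replicate 1 and 49.2% in replicate 2; the longer has 2854 bases in all and the shorter 851, and TPM divides by length.

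Abca3 and Lpcat1 were each led by a coding transcript, with shares that differed more between the replicates. The main Abca3 transcript held 74.9% of the TPM of Abca3 in replicate 1 and 65.2% in replicate 2 (70.0 ± 6.84%), and another coding one had 0% and 7.01%. Abca3 transcripts annotated as coding summed to 83.9 ± 0.607%, so that the difference lay in how coding reads were divided. The main Lpcat1 transcript held 87.2% of the TPM of Lpcat1 in replicate 1 and 79.6% in replicate 2 (83.4 ± 5.33%). A nonsense-mediated decay model of Lpcat1, with a stop after 77 codons, had 2.38% and 8.72%, from 212 and 645 expected counts.

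**Figure D5:**
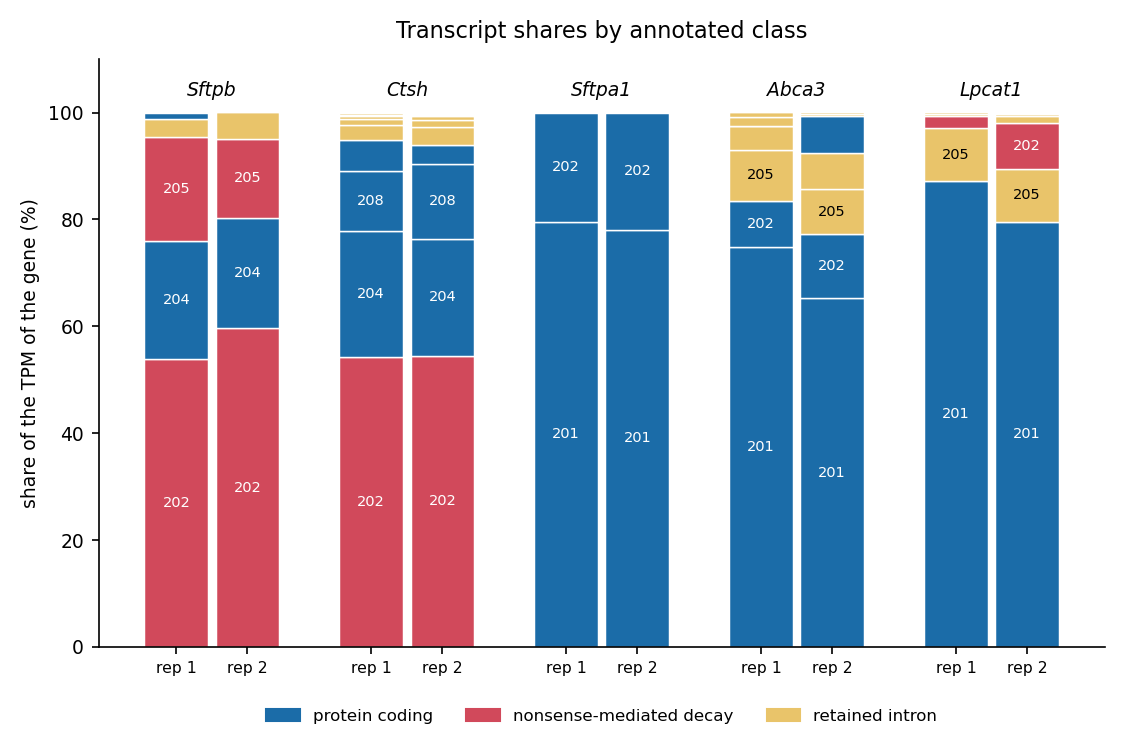
Share of the TPM of Sftpb, Ctsh, Sftpa1, Abca3 and Lpcat1 held by each transcript in each replicate, in percent, coloured by annotated class and labelled with the number of the transcript where it holds at least 8%. Sftpb-202 and Ctsh-202, both nonsense-mediated decay models, lead their genes at 56.8 ± 4.03% and 54.4 ± 0.262%.

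Genes on the opposite strand overlap 3 of the 10, and the strand setting of the counting is not given in the sources used here, so reads of each pair may be mixed. D330041H03Rik, a noncoding gene across Abca3, had 12.0 TPM in replicate 1 and 17.0 TPM in replicate 2 (414 and 402 estimated reads), against 5033 and 4083 for Abca3 itself. The small RNA gene Gm25618 in the same place had 1 and 0 counts. Gm17182 across Slc34a2 had 20 and 7 estimated reads, and Gm15396 across Napsa was not analysed here.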

How the data were processed

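The 2 libraries were used as 1 group with n = 2, and 10 ng of RNA entered each, per the labels. Per the notes deposited with the files, quantification used mm10 and GENCODE M4; the aligner, quantifier and strand setting are not given in the sources used here. The authors deposited expected counts (estimated reads, with shared reads divided), TPM (per effective length, spike-ins in the total) and FPKM for genes and transcripts. The score columns deposited beside TPM are credibility bounds within a library. The percent values deposited for transcripts are shares of the TPM of the gene. Names, classes, coordinates and transcript sequences came from GENCODE M21 on the same build, which matched 42462 of 43346 gene rows; promoters came from RefSeq GRCm38.p6.

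Differences used log2(TPM + 1), which understates those of low genes, over genes averaging 1 TPM or more. A ratio's sign was taken to hold past 2 SD. A count of 0 was given the limit of 3 counts; limits and intervals cover counting error only. The members and lists were chosen with earlier results of these data known. Named genes are all 10 members, the 3 highest and the lowest of each pathway or relative list with any at 0 in both replicates, the highest relative of each member, and the 3 highest of each marker list. List genes past the fold, Scgb3a2 as the other gene past it at 1000 TPM or more, Mbl1, Gm7920 and genes on the opposite strand were named after their values were seen. Gene counts were rounded for TMM in edgeR 4.0.16 and size factors in DESeq2 1.42.0 (R 4.3.3), which served as alternatives only and were tested on simulated data. Other steps used Python 3.11.15, NumPy 2.4.6, pandas 2.3.3 and matplotlib 3.10.9.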

Additional observations from a re-analysis of the deposited data

How the results depend on the processing

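The direction of all 10 replicate differences held under the alternatives run: a pseudocount of 0.1 TPM, posterior mean TPM, and TMM, DESeq2, spike-in and pan-epithelial scaling. The number of members past the fold of 0.32 (log2) was 7 under these except 4 under pan-epithelial scaling, while 7.44% (DESeq2) to 12.9% (pseudocount of 0.1 TPM) of all genes passed it. It was 2 at a fold of 1.5, which 4.66% of all genes passed. FPKM, a lower scale, gave a median level of 70.5 FPKM. Leaving out 1 replicate put the median level at 90.0 to 118 TPM, the share of TPM at 1.23 to 1.60%, the members at 100 TPM or more at 4 to 6, and the members over their relatives at 7. Without replicate 1, Lpcat1 and Napsa also reached 100 TPM. The count of pathway and relative list genes higher past the fold was 6 as reported, 10 with a pseudocount of 0.1 TPM, 10 with spike-in scaling, 9 with TMM and 9 with DESeq2, where 12.9%, 8.20%, 7.60% and 7.44% of all genes passed it, alternatives for these lists added after seeing the data. The log2 ratio of Lamp3 to Abca3 turned to -0.81 on expected counts not divided by length, to -0.02 on posterior mean TPM and to -0.08 without replicate 2, and was 0.12 without replicate 1. On expected counts Sftpc to Abca3 was 5.41, Sftpc to Sftpb 4.71 and Abca3 to Lpcat1 -0.76, since length is left in by construction. Of the values for single genes, ratios and transcripts, 153 kept their size or direction, 17 moved and 3 turned. No paired analysis was possible because there is 1 group. Depth limits Sftpd most, at 86 and 123 expected counts.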

Other observations

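At a mean of 100 TPM or more, 26 of 1658 genes (1.57%) were higher by 0.32 or more on the log2(TPM + 1) scale in replicate 2, and 3 of them were Sftpa1, Sftpc and Ctsh, of the 5 members at that level. Among the other 23, named after their values were seen, were the club cell enzyme Cbr2 at 295 TPM in replicate 2, against 164 TPM in replicate 1, Selenbp1 at 360.2 and 286 TPM, Clic3 at 151 and 117 TPM, and the iron carrier Trf at 374 and 138 TPM. The largest difference on this list was 1.82, for the skeletal muscle marker Acta1. Many of the 23 were rows with pseudogene or Gm names, such as Rpl10-ps3 at 393 TPM in replicate 2, against 179 TPM in replicate 1, Rps16-ps2 at 172 and 121 TPM, and Gm8203 at 569 and 447 TPM.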
